A study of Mus musculus with 6 samples.

Results

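The genes described here are 10 genes linked to resting small lymphocytes: Btg1, Btg2, Tob1, Klf2, Klf3, Klf6, Foxp1, Foxo3, Tsc22d3 and Txnip. They were selected by symbol, with earlier results of these data known. All 10 were found among the 49997 symbols of the count table and among the 7792 genes with enough counts to be tested. RNA was sequenced from small pre-B cells, which were purified by flow cytometry from bone marrow of mice aged 6 to 12 weeks on the C57BL/6 background. One group was wild type (WT) and the other carried the ΔrsCBE genotype (rsCBE in the sample labels), a deletion whose interval the labels do not state, with 3 libraries in each group. The labels do not say whether each library came from a separate mouse, so p-values measure the spread between these libraries, which may be technical in part or, for WT, in whole. The ΔrsCBE libraries had patterns of both sexes (below), so they did not all come from the same mouse.

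Small pre-B cells have left the cycle of the large pre-B stage and rearrange their light chain genes while at rest. Rest in lymphocytes is an actively kept state. Krüppel-like and forkhead transcription factors hold growth and division genes down, BTG and Tob proteins shorten the poly(A) tails of messenger RNAs through the CCR4-NOT deadenylase, and Txnip limits glucose uptake. FoxO factors are shut out of the nucleus by PI3 kinase and Akt, so growth factor signals that act through these kinases reduce FoxO activity.

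Total counts ranged from 428106 to 1300805 per library. CPM values are counts scaled to a common library total with TMM factors, and a floor of 3 counts lies between 2.38 and 7.36 CPM, depending on the library. ΔrsCBE replicates 2 and 3 had a female pattern (Xist counts of 1603 and 1430, and 0 counts from 4 Y-linked genes). The other 4 libraries had a male pattern with at most 1 Xist count. Values without the female libraries are given for some of the results, not for all. Small pre-B markers such as Rag1, Pax5 and Il2ra were present, 10 of 10 tested, with a summed level of 11902 to 14090 CPM in WT and 12823 to 13368 CPM in ΔrsCBE. Of these markers, 6 were above 0 in log2 fold change, with a median of 0.08, and 0 passed the adjusted threshold by edgeR. At an unadjusted edgeR p-value under 0.05, 1 was higher (Vpreb3) and 2 were lower (Cd24a and Cd79a). The pro-B and large pre-B list summed to 742 to 803 CPM in WT and 806 to 907 CPM in ΔrsCBE, mostly from Il7r and Bcl2l1, and its 4 tested genes of 10 were all above 0 in log2 fold change, with a median of 0.21. In the male libraries, with 1 ΔrsCBE library, 2 of these 4 genes were above 0 and the median was 0.09. With all 6 libraries, 0 of the 4 genes passed by edgeR and 0 had an unadjusted p-value under 0.05, and 0 passed by DESeq2. The part of this list in the results below was not tested. Its stage-defining genes Dntt, Igll1 and Vpreb1 had 7, 10 and 7 counts over all 6 libraries. The mature B list summed to 656 to 949 CPM in WT and 668 to 824 CPM in ΔrsCBE, with Fcer2a and Cr2 at 4 counts each and Ighd listed at 0. The T and NK list (7 of 9 genes at 0) reached at most 2.53 CPM, the erythroid list (6 of 7 at 0) at most 0.792 CPM, and the myeloid list (3 of 10 at 0) 53.1 to 85.8 CPM. Most of the myeloid sum came from Itgam, which averaged 63.9 CPM in WT and 55.8 CPM in ΔrsCBE. Lyz2, Csf1r and S100a9 had 8, 10 and 6 counts over all 6 libraries.

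Because the 10 genes were chosen with earlier results of these data known, the shares of all tested genes beside them are a description and test nothing. All 10 genes had a fitted log2 fold change above 0 (ΔrsCBE over WT), which 51.8% of the tested genes had. The values ran from 0.07 for Txnip to 0.65 for Klf3, with a median of 0.26 against 0.01 for all tested genes. Only Klf2 passed the threshold (adjusted p below 0.05, quasi-likelihood test of edgeR), which 1.69% of all tested genes passed in either direction and 0.205% passed upwards. An unadjusted p-value under 0.05 with a higher level in ΔrsCBE was found for 5 of 10 genes (Klf2, Klf3, Klf6, Btg1 and Btg2) and for 4.22% of tested genes. In 4 of 10 genes (Klf2, Klf3, Btg1 and Btg2) every ΔrsCBE library lay above every WT library, as did 7.23% of tested genes. No gene of the 10 was lower by any of these 3 counts, which 1.49%, 6.02% and 8.92% of tested genes were. In the male libraries alone, 3 WT against 1, the spread comes from the WT libraries only and the lone ΔrsCBE library is assumed to vary like them. There the log2 fold change was above 0 for 8 of the 10 genes and for 49.4% of 8446 tested genes. An unadjusted edgeR p-value under 0.05 with a higher level was found for 4 (Klf6, Btg2, Foxo3 and Klf2) and for 4.66% of genes, and 0 of the 10 passed the threshold, against 2.06% of genes.

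**Figure D1:**
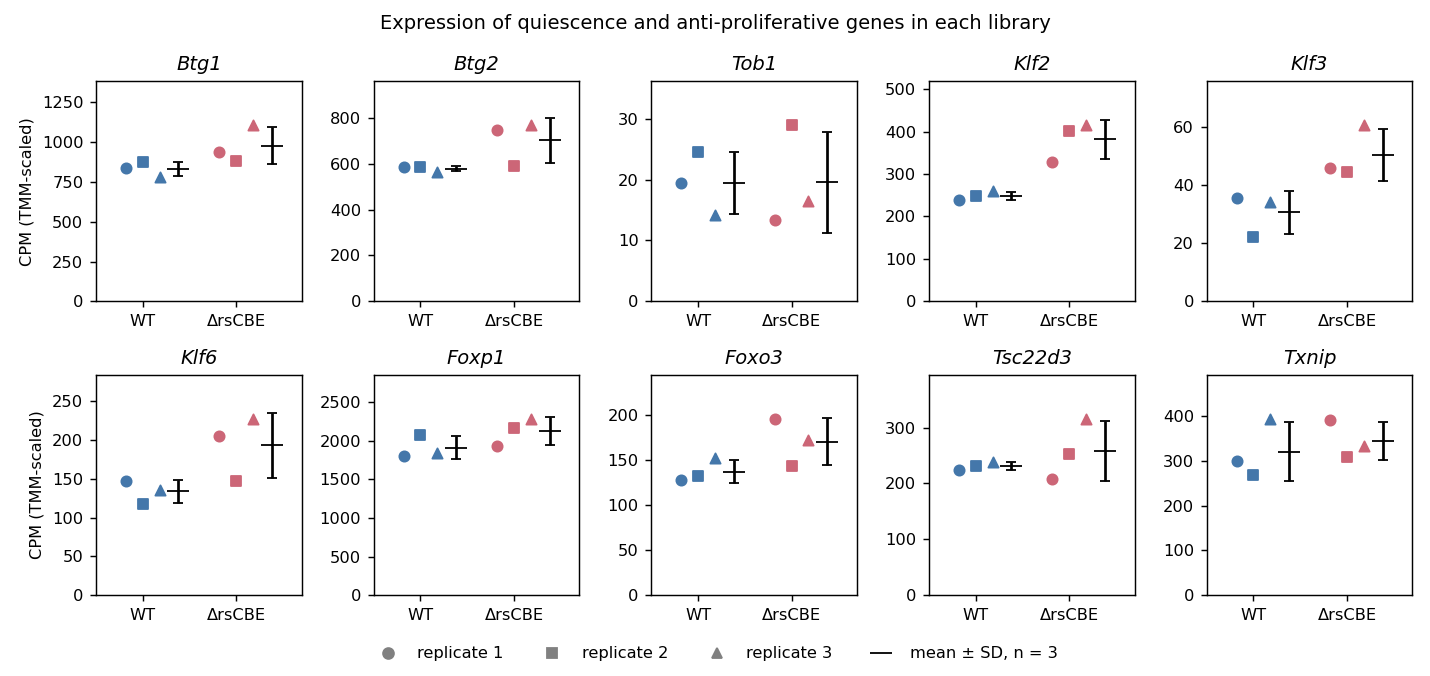
Level of each of the 10 genes in CPM (vertical axes, starting at 0) in the 3 WT libraries (blue) and the 3 ΔrsCBE libraries (red), with marker shapes for replicates and black bars for the mean ± SD. The ranges of the genotypes are separate for Klf2, Klf3, Btg1 and Btg2 and overlap for the other 6 genes.

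**Figure D2:**
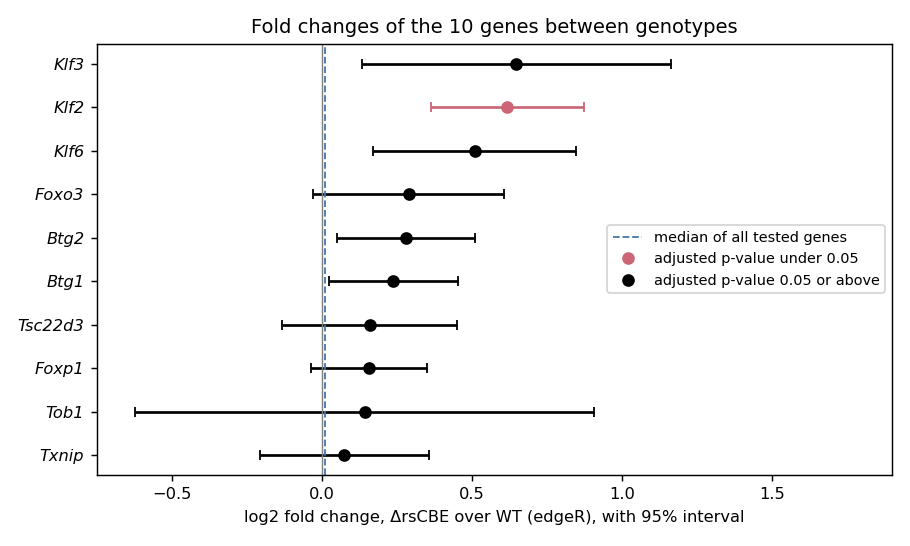
Log2 fold change of each gene (ΔrsCBE over WT, edgeR) with its 95% interval, Klf2 in red as the gene past the threshold and the median of all tested genes as a dashed line. The intervals of Klf2, Klf3, Klf6, Btg1 and Btg2 lie above 0, and those of the other 5 genes include 0.

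Klf2 is a zinc-finger transcription factor that keeps lymphocytes at rest and controls their trafficking. It lies at chr8:72319033-72321656 on the plus strand (GRCm38, GENCODE M21). Its level was 238, 248 and 259 CPM across WT replicates 1 to 3, against 329, 402 and 416 CPM across the ΔrsCBE replicates. The groups were well apart, and the lowest ΔrsCBE library was the male one. The means were 248 ± 10.2 and 382 ± 46.4 CPM (SD, n = 3), a log2 fold change of 0.62 ± 0.12 (SE; adjusted p = 0.00533, edgeR), or 1.53-fold with a 95% interval from 1.28 to 1.83. Among the 7792 genes it ranked 56th by p-value. The call was lost without ΔrsCBE replicate 3 (log2 fold change 0.55, edgeR, adjusted p = 0.0755) and in the male libraries, 3 against 1 (0.40, edgeR, adjusted p = 0.270).

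Klf6 and Klf3 belong to the same family. Klf6 (chr13:5861482-5870394, plus strand), a widely expressed activator that is also induced early after stimulation, had 148, 118 and 136 CPM across WT replicates 1 to 3, against 206, 147 and 227 CPM across the ΔrsCBE replicates. ΔrsCBE replicates 1 and 3 were above all WT libraries, and replicate 2 lay just below WT replicate 1. The log2 fold change was 0.51 ± 0.16 (SE; adjusted p = 0.146, edgeR), and without ΔrsCBE replicate 2 it was 0.68 and past the threshold (edgeR, adjusted p = 0.00830). Without ΔrsCBE replicate 3 it was 0.38 (edgeR, adjusted p = 0.627). Klf3 (chr5:64803388-64832901, plus strand), a repressor that recruits CtBP corepressors, had the highest fitted change of the 10 but low counts, 203 in all 6 libraries together. Its levels were 35.7, 22.1 and 34.1 CPM across WT replicates 1 to 3, against 46.0, 44.4 and 60.6 CPM across the ΔrsCBE replicates, with no overlap. The log2 fold change was 0.65 ± 0.25 (SE; adjusted p = 0.294, edgeR), and the 95% interval of the fold ran from 1.10 to 2.24. In GENCODE M21, Klf3 overlaps Gm20033 on the other strand and C230096K16Rik on its own strand, neither listed by symbol in the count table. How reads in such overlaps were counted is not stated.

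Upstream sequences are shown for Klf2, Klf6, Btg1, Btg2 and Txnip, picked by hand for a motif match near their start, to set the members side by side. They were taken from the RefSeq promoter table (GRCm38.p6), which matched all 10 genes with 14 start sites, and end before the first annotated start. The Klf2 stretch (chr8:72318812-72319032, plus strand) has in capitals a match to the MEF2 motif, and the Klf6 stretch (chr13:5861239-5861481, plus strand) has in capitals the E-box CACGTG.
Klf2: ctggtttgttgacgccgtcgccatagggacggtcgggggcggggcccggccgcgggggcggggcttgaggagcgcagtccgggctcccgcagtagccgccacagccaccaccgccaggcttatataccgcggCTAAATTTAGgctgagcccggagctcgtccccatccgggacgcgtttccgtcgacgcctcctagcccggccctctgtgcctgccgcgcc
Klf6: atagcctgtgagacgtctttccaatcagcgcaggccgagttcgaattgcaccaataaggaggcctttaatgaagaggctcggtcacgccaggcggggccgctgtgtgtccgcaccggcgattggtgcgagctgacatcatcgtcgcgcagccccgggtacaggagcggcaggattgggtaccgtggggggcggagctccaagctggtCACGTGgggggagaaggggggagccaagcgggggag
Both strands were searched in windows of 300 bases, the motifs were picked with these sequences in view, and a match is a description of letters only. The MEF2 motif occurred in 0.557% of all 32851 promoter windows and, among the 10 genes, only in Klf2. CACGTG occurred in 7.15% of windows and, among the 10 genes, only in Klf6. CCACCC, the core letters of Krüppel-like factor sites, occurred in 31.5% of all windows and in 6 of the 14 windows of the 10 genes. Those 6 windows belong to 5 genes (Foxp1, Klf2, Klf3, Tob1 and Tsc22d3), and the Klf2 match lies beyond its printed stretch.

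Btg1, Btg2 and Tob1 encode anti-proliferative proteins of the BTG/Tob family that bind the CCR4-NOT complex. Btg1 (chr10:96617006-96622809, plus strand) had 837, 873 and 783 CPM across WT replicates 1 to 3, against 941, 885 and 1108 CPM across the ΔrsCBE replicates. The gap between the groups was small, since ΔrsCBE replicate 2 was just above WT replicate 2, and the log2 fold change was 0.24 ± 0.10 (SE; adjusted p = 0.406, edgeR). Without ΔrsCBE replicate 3 it was 0.14 (edgeR, adjusted p = 0.888). Btg2 (chr1:134075170-134079120, minus strand), which is also a p53 target and an early-response gene, had 584, 586 and 565 CPM across WT replicates 1 to 3, against 746, 591 and 769 CPM across the ΔrsCBE replicates. WT libraries lay within a narrow range, ΔrsCBE replicate 2 was only slightly above it, and replicates 1 and 3 were clearly above it. Its log2 fold change was 0.28 ± 0.11 (SE; adjusted p = 0.320, edgeR). The intervals of the fold, 1.02 to 1.37 for Btg1 and 1.04 to 1.42 for Btg2, leave out a change of the size fitted for Klf2.

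Tob1 (chr11:94211454-94215495, plus strand) was near the limit of what could be measured, with 92 counts over the 6 libraries. It had 19.5, 24.5 and 14.3 CPM across WT replicates 1 to 3, against 13.3, 28.9 and 16.4 CPM across the ΔrsCBE replicates, so that both the highest and the lowest library were ΔrsCBE. The log2 fold change of 0.14 had a standard error of 0.37, and its sign changed when single libraries were left out. Its 95% interval runs from a fold of 0.649 to 1.87, so the interval covers both a fall and a rise. The Btg1 and Btg2 start sites are shown because each carries a motif of a signal-controlled factor. The Btg1 stretch (chr10:96616751-96617000, plus strand) has in capitals the forkhead motif GTAAACA, read on the opposite strand, and the Btg2 stretch (chr1:134079156-134079405, minus strand) has the cAMP response element TGACGTCA.
Btg1: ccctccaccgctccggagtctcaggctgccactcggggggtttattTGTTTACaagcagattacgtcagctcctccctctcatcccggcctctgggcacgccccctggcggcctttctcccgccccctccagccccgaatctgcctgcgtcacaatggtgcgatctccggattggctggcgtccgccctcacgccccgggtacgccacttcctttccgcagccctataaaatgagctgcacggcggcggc
Btg2: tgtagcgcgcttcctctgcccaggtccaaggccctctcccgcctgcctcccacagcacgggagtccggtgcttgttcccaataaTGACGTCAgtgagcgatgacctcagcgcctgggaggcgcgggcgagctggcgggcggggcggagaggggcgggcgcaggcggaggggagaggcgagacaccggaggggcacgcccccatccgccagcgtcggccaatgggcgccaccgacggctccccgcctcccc
GTAAACA was found in 3.65% of all windows and in 2 of the 14 windows of the 10 genes, those of Btg1 and Txnip. TGACGTCA was found in 1.79% of windows and, of the 10, only in Btg2.

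Foxp1 and Foxo3 are forkhead factors. Foxp1 (chr6:98925338-99522721, minus strand), which is needed for early B-cell development, had the most counts of the 10 (9802 in all libraries). It overlaps the protein-coding model Gm20696 and 3 noncoding models on its own strand. None of these models is listed by symbol in the count table, and how reads there were counted is not stated. The level of Foxp1 was 1811, 2079 and 1849 CPM across WT replicates 1 to 3, against 1928, 2170 and 2286 CPM across the ΔrsCBE replicates, and WT replicate 2 lay above ΔrsCBE replicate 1. The log2 fold change was 0.16 ± 0.09 (SE; adjusted p = 0.620, edgeR). At this depth the 95% interval of the fold ran from 0.975 to 1.27. In the male libraries the estimate for Foxp1 was 0.017 on the log2 scale, and leaving out ΔrsCBE replicate 3 gave 0.10. Foxo3 (chr10:42181841-42276755, minus strand), a forkhead factor that Akt holds in the cytoplasm and that induces cell cycle inhibitors, had 128, 132 and 152 CPM across WT replicates 1 to 3, against 196, 144 and 173 CPM across the ΔrsCBE replicates, with ΔrsCBE replicate 2 inside the WT range. Its log2 fold change was 0.29 ± 0.15 (SE; adjusted p = 0.557, edgeR), with 0.17 without ΔrsCBE replicate 1 (adjusted p = 0.741) and 0.49 in the male libraries (adjusted p = 0.250).

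Tsc22d3 (GILZ), a leucine zipper protein induced by glucocorticoids and FoxO factors, lies on the X chromosome (chrX:140539528-140600659, minus strand). It had 224, 230 and 238 CPM across WT replicates 1 to 3, against 208, 252 and 316 CPM across the ΔrsCBE replicates. The ΔrsCBE libraries with a female pattern were the highest of the 6 and the male one was the lowest. The log2 fold change was 0.16 ± 0.14 (SE; adjusted p = 0.785, edgeR) and became -0.15 in the male libraries (edgeR, adjusted p = 0.836). Sex and genotype cannot be told apart in the female libraries, because no WT library is female.

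Txnip (chr3:96557957-96561883, plus strand), an arrestin-domain protein that binds thioredoxin and lowers glucose uptake, had 299, 267 and 394 CPM across WT replicates 1 to 3, against 391, 308 and 333 CPM across the ΔrsCBE replicates. The highest and the lowest library were both WT, so the ΔrsCBE values lay inside the WT range. The antisense gene Gm15441, which overlaps Txnip, had 4 counts in all libraries. The log2 fold change was 0.07 ± 0.14 (SE; adjusted p = 0.922, edgeR), and the 95% interval of the fold ran from 0.865 to 1.28. Its upstream stretch (chr3:96557707-96557956, plus strand) is shown because it holds, in capitals, the forkhead motif GTAAACA and a paired carbohydrate response element (CACGAG repeated after 5 bases of any kind), the sort of site at which the glucose-responsive factors MondoA and ChREBP act with Mlx.
Txnip: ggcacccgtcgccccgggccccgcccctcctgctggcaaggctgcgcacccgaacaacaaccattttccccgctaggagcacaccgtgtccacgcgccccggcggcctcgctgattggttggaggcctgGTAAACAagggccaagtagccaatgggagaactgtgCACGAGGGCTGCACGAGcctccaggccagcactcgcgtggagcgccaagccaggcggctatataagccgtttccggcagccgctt
This exact spelling, picked with the Txnip sequence in view, was found in 1 of the 32851 windows, that of Txnip itself. Other spellings of carbohydrate response elements were not searched, so the count does not show how many promoters hold such an element.

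Levels per kilobase of annotated exon (all GENCODE M21 isoforms joined) put the WT libraries in the order Btg2, Btg1, Foxp1, Klf2, Txnip, Tsc22d3, Klf6, Foxo3, Tob1 and Klf3. Btg2 had 211 ± 4.15 CPM per kb and Btg1 had 158 ± 8.57 CPM per kb (SD, n = 3). Foxp1 with 139 ± 10.6 and Klf2 with 134 ± 5.55 CPM per kb did not differ beyond their spread in WT. In ΔrsCBE their order was the other way, with 155 ± 13.3 CPM per kb for Foxp1 and 207 ± 25.1 CPM per kb for Klf2. Txnip followed with 102 ± 21.1 CPM per kb in WT, Tsc22d3 with 53.2 ± 1.67, Klf6 with 30.5 ± 3.44, Foxo3 with 18.2 ± 1.68, Tob1 with 8.49 ± 2.24 and Klf3 with 2.72 ± 0.662 CPM per kb. Joining all isoforms lowers the value of genes with many of them, such as Foxp1 and Klf3.

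The libraries differed in how many of the 10 genes were high. ΔrsCBE replicate 3 had the highest level of 7 of the 10 genes, and 8 of the 10 were there above every WT library. The same was true of 6 genes in ΔrsCBE replicate 1 and of 7 in replicate 2. The matching shares over all tested genes were not counted, so these counts do not show whether the 10 genes differ from other genes. The mean deviation of log2 CPM over the 10 genes was -0.14, -0.18 and -0.12 across WT replicates 1 to 3, against 0.09, 0.09 and 0.27 across those of ΔrsCBE. Replicates 1 and 2 of ΔrsCBE had the same mean but were high in different genes. Replicate 1 was higher than replicate 2 in Klf6, Btg2, Foxo3 and Txnip and, by smaller margins, in Btg1 and Klf3, and lower in Klf2, Tsc22d3, Foxp1 and Tob1.

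**Figure D3:**
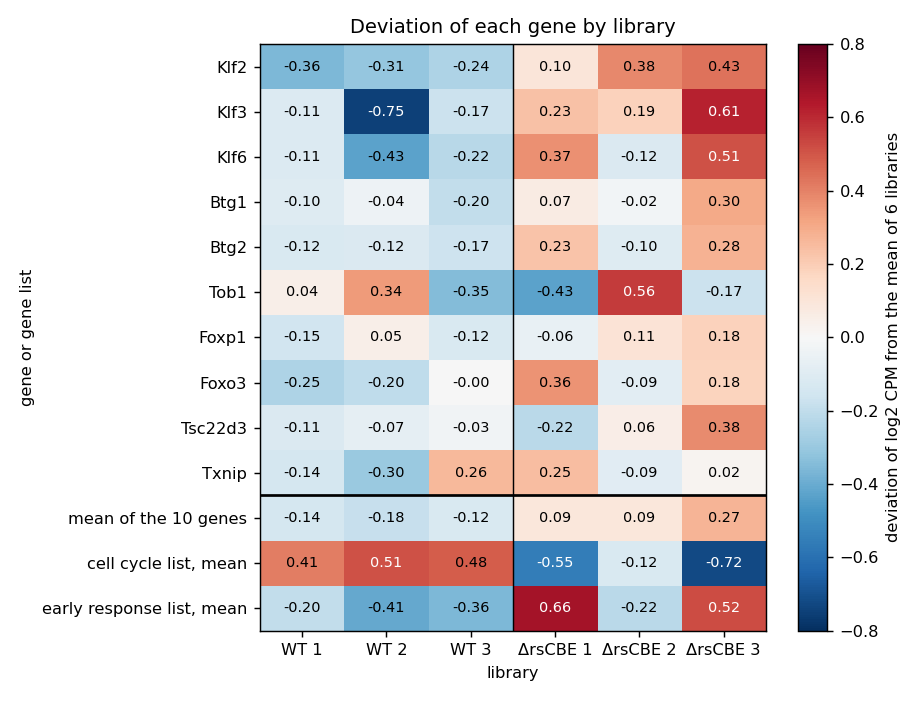
Deviation of log2 CPM from the mean of the 6 libraries for each of the 10 genes (rows) in each library (columns), with the mean over the 10 genes and over the cell cycle and early response lists in the bottom rows. Red is higher and blue is lower; ΔrsCBE replicate 2 is low for Klf6, Btg2 and Foxo3 and for the early response list.

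The cell cycle and early response genes differed between the genotypes too. Of 26 tested cell cycle genes, all had a fold change below 0 and 15 fell past the threshold, with a median log2 fold change of -1.004. Their summed level was 7270 to 7923 CPM in WT and 3101 to 4968 CPM in ΔrsCBE. Mki67, a marker of cycling cells, had 3472, 3759 and 3476 CPM across WT replicates 1 to 3, against 1528, 2418 and 1521 CPM across the ΔrsCBE replicates. The early response list, which holds Fos and Jun and is induced by stimulation or tissue handling, had 10 of 10 tested genes above 0, with 3 past the threshold and a median of 0.65. Its mean deviation was 0.66, -0.22 and 0.52 in ΔrsCBE replicates 1 to 3 and -0.20, -0.41 and -0.36 in WT. The part of either list in the values of the 10 genes was not tested. In bulk RNA, a larger share of resting cells in the sort and more of these transcripts per cell cannot be told apart.

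Among the other Krüppel-like factors, 5 of 14 were tested and 1 rose past the threshold. That was Klf4, which restrains B-lineage proliferation and is itself early-induced in many cells. It had 153, 115 and 131 CPM across WT replicates 1 to 3, against 297, 178 and 285 CPM across the ΔrsCBE replicates, a log2 fold change of 0.91 ± 0.17 (SE; adjusted p = 0.00366, edgeR). The groups did not overlap, and ΔrsCBE replicate 2 was again the lowest of its group, as for Klf6 and Btg2. In the male libraries, with 1 ΔrsCBE library, the log2 fold change of Klf4 was 1.15, and without WT replicate 3 the call was lost (0.90, edgeR, adjusted p = 0.0538). The abundant Klf13 had a log2 fold change of 0.12, and Klf1, Klf5, Klf14, Klf15 and Klf17 were listed at 0 in all libraries.

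Of 6 genes known as Klf2 targets in lymphocytes, 3 were tested and 0 passed the threshold by edgeR, with 1 at an unadjusted p-value under 0.05. S1pr1, the receptor by which lymphocytes leave tissues, had 92.5, 71.1 and 81.6 CPM across WT replicates 1 to 3, against 132, 104 and 158 CPM across the ΔrsCBE replicates, without overlap. Its log2 fold change was 0.66 ± 0.18 (SE; adjusted p = 0.0632, edgeR), short of the threshold here and past it without ΔrsCBE replicate 2 (0.81, edgeR, adjusted p = 0.00664), with 0.51 without ΔrsCBE replicate 3 (adjusted p = 0.457). Ccr7, a chemokine receptor for lymph node homing, had a log2 fold change of 0.07.

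Among the partners of the BTG proteins, 14 of 16 genes were tested, 7 had a fold change above 0 and 0 passed the threshold by edgeR. The median log2 fold change was 0.01, the same as for all tested genes. Cnot6 and Cnot6l, catalytic subunits of the deadenylase, had the smallest p-values, with log2 fold changes of -0.37 and -0.34 (unadjusted edgeR p-values 0.0169 and 0.0307).

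Of the other FoxO and Foxp factors, 3 of 6 were tested and 0 passed by edgeR, nor did any of them have an unadjusted p-value under 0.05. Foxo1, the main FoxO factor of pre-B cells, averaged 645 ± 24.5 CPM in WT against 729 ± 106 CPM in the other group (SD, n = 3), with a log2 fold change of 0.18 ± 0.11 (SE). All 18 genes of the FoxO target list were tested, 12 were above 0 and 0 passed by edgeR, with a median of 0.08 and 2 genes, Trib1 and Blnk, at an unadjusted p-value under 0.05. Trib1, a pseudokinase, had a log2 fold change of 0.74 and Blnk, the adaptor downstream of the pre-B receptor, one of 0.25. In the male libraries the median of the FoxO and Foxp factors was -0.14 (against 0.14 in all 6) with 1 of 3 above 0, and that of the FoxO targets was -0.0081 with 9 of 18 above 0.

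The groups around Tsc22d3 and Txnip also held no gene past the threshold. Of 13 genes of the TSC22 and glucocorticoid list 11 were tested, 6 were above 0, none had an unadjusted edgeR p-value under 0.05, and the median was 0.05. Of 11 arrestin-domain, thioredoxin and MondoA genes 8 were tested, 5 were above 0 and 1, the Txnip relative Arrdc3, had an unadjusted edgeR p-value under 0.05 (log2 fold change 0.48, edgeR, adjusted p = 0.426). Of 20 further regulators of quiescence, 18 were tested and 0 passed by edgeR, with a median of 0.07. At an unadjusted edgeR p-value under 0.05, 1 was higher (Zfp36) and 3 were lower (Rbl1, Cdkn2d and Cdkn2c). Zfp36, an mRNA decay factor that is also in the early response list, had a value of 0.47 on the log2 fold change scale (adjusted p = 0.145, edgeR). The cell cycle inhibitors Cdkn2d and Cdkn2c each had -0.73. The pocket protein Rbl1 had -0.66 (edgeR, adjusted p = 0.0940). With the Wald test of DESeq2, too, 0 genes of these lists passed, for the Klf2 targets, BTG partners, FoxO and Foxp factors, FoxO targets, TSC22, arrestin-domain and quiescence regulator lists alike, whereas Klf4 did.

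**Figure D4:**
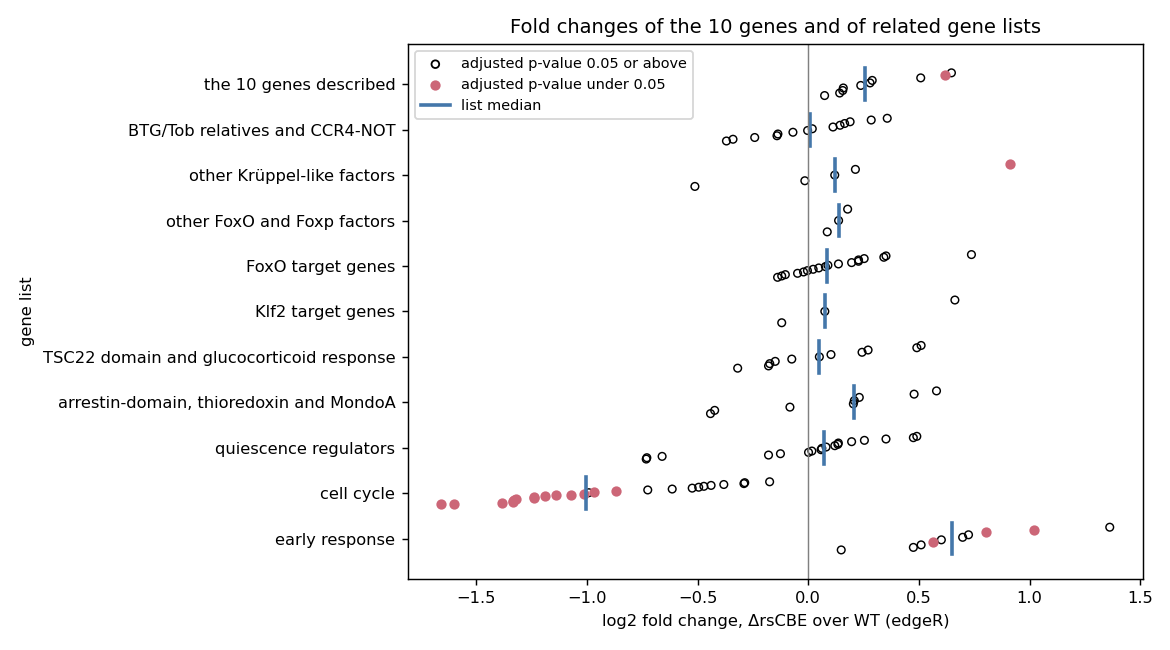
Log2 fold change (ΔrsCBE over WT, edgeR) of every tested gene of each list, with genes past the threshold in red and the list median as a blue bar. The median of the 10 genes, 0.26, lies between those of the related lists and that of the early response list, 0.65, while the cell cycle list lies at -1.004.

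The mean deviation of the 10 genes over the 6 libraries was compared with that of each of 7782 other tested genes, as a description of libraries that share depth and genotype. The most alike were Tecpr1, Utp14b, Ddi2, Rubcnl and Yipf3, with Pearson correlations from 0.978 to 0.992. Of these only Utp14b passed the threshold (log2 fold change 0.81, edgeR, adjusted p = 0.0249), and its level was 58.4, 49.0 and 61.8 CPM across WT replicates 1 to 3, against 95.6, 87.8 and 123 CPM across the ΔrsCBE replicates.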

How the data were processed

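The deposited table holds whole-number read counts per gene symbol, 1 column per library, without normalization. The submitters' processing notes name Trim Galore 0.6.10, STAR 2.7.11, HTSeq, DESeq2 and the build mm10, with no roles; per the labels' protocols, a stranded total RNA kit was used after ribosomal RNA removal. The annotation, the strand setting of the counting and any filter are not given in the sources used here. Columns were matched to samples by library name.

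Counts were tested with edgeR 4.0.16 (R 4.3.3): filterByExpr with a minimum count of 10, TMM scaling (factors 0.978 to 1.02), a robust quasi-likelihood fit with genotype as the factor over all 6 libraries, and Benjamini-Hochberg adjustment over all 7792 tested genes, with a threshold of 0.05. Standard errors and 95% intervals were derived from the F statistic. Log2 CPM used a prior count of 2. The script was tested on simulated counts. DESeq2 1.42.0 was an alternative. Replicates of a genotype differed by more than counting noise (chi-square divided by its degrees of freedom, 1.88 to 3.41). The floor of 3 counts reflects counting error alone, and reads lacking molecular identifiers can be copies of the same molecule.

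The members and the gene lists were chosen with earlier results of these data known. All 10 members are named, and from each related list the genes past the threshold or otherwise the 2 with the smallest p-values; from the cell cycle and early response lists, and where a further gene is given for its role, examples were chosen after values were seen. A gene that this rule names is not reported here. Exon lengths and gene coordinates come from GENCODE M21 (GRCm38), and the lengths replace the planned RefSeq transcript lengths, which were not used here.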

Additional observations from a re-analysis of the deposited data

How the results depend on the processing

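Under 15 alternatives in scaling, filter, test, threshold, replicate block and libraries left out, the count of the 10 genes past the threshold was 1 (Klf2) except in 3: it was 0 in the male libraries (3 WT against ΔrsCBE replicate 1) and it ranged from 0 (without ΔrsCBE replicate 3) to 2 (without ΔrsCBE replicate 2, which adds Klf6) when single libraries were left out. With DESeq2's Wald test 9 of the 10 genes had an adjusted p-value and Klf2 passed. The count over all genes, 132, ranged from 59 (without WT replicate 3 or without ΔrsCBE replicate 3) to 187 (without ΔrsCBE replicate 2). Of 140 log2 fold changes of the 10 genes under alternatives, 132 were above 0, and 7 genes were above 0 in each. The other 3 genes, none past the threshold, changed sign: Tob1 with the replicate block (-0.0026), without WT replicate 3 (-0.11), without ΔrsCBE replicate 2 (-0.28) and in the male libraries (-0.43); Tsc22d3 without ΔrsCBE replicate 3 (-0.0066) and in the male libraries (-0.15); and Txnip without WT replicate 2 (-0.018) and without ΔrsCBE replicate 1 (-0.039). With single libraries left out these genes reached up to 0.36, 0.29 and 0.28, in that order. The cause was not tested. Same-numbered libraries share only a number, with correlations of their deviations between 0.00908 and 0.0197 over 7792 genes; with the replicate block 136 genes passed, Klf2 among them (log2 fold change 0.62), and S1pr1 was then past the threshold (edgeR, adjusted p = 0.0419). No scaling moved the median of all genes by more than 0.1. Tob1 and Klf3 had the fewest counts of the 10 genes and the widest intervals.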
